A study of Arabidopsis thaliana with 12 samples.

Results

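The 3 genes described here, AT1G61990, AT1G62150 and AT1G79220, belong to the mTERF family of nucleus-encoded organelle factors. They were picked by locus with earlier results of these data known. Each has a probe to which the platform annotation assigns that gene alone, as have 8 mTERF genes in all, and these are 3 of the 692 such 1-gene probes among 3439 probes in all. They are 3 of the 689 distinct loci so measured. RNA from the toc120 mutant of Arabidopsis thaliana and from wild type (WT), both of the Columbia 0 ecotype, was measured on 12 arrays, 6 per genotype. TOC120 is a receptor GTPase that recognises proteins at the chloroplast surface before their import. Its own gene is on no probe with an assigned gene, so the genotype labels could not be set against its level. The labels name no mutant allele, tissue, plant age, growth condition or array type. They also do not say that the arrays of a genotype hold RNA of different plants, so the p-values below speak of the spread among these arrays alone, part or all of which may be technical.

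mTERF proteins are built from a repeated helical motif and bind nucleic acids inside organelles. The family takes its name from a human mitochondrial factor first described as a terminator of transcription. In plants it is much enlarged, and its members work in mitochondria or chloroplasts, where characterised ones act in transcription, intron splicing, transfer RNA maturation or ribosome assembly. Several are needed for normal chloroplasts or for embryo development, such as BSM, MDA1 and SOLDAT10. They are encoded in the nucleus, made in the cytosol and imported into the organelle. No role is given here for AT1G61990, AT1G62150 or AT1G79220 themselves, and the arrays say nothing of where their proteins go.

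AT1G61990 and AT1G62150 lie in the same stretch of chromosome 1, where mTERF genes are clustered. By gene order in TAIR10.1, 25 genes stand between them, 4 of which are on a list of 35 mTERF loci, and 9 loci of that list fall within the span and the 10 genes on either side of it. AT1G79220 lies elsewhere on chromosome 1, 2234 genes beyond AT1G62150. No probe or gene sequence was used here, so how far relatives in the cluster share signal on a probe was not tested.

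AT1G79220 was higher in toc120 and AT1G61990 and AT1G62150 were lower, after the arrays had been brought to a common distribution of intensities (quantile normalisation). AT1G62010, also measured in the cluster, showed no change that passed the test on that scale. The rise of AT1G79220 passed the test under all 3 scalings tried, which were quantile-normalised, as deposited and with equal array medians. Of all probes, 21.4%, 33.8% and 18.5% were called higher under these. The falls of AT1G61990 and AT1G62150 passed the test only with scaled arrays and not with the intensities as deposited. In the same order of scalings, 24.8%, 11.6% and 28.8% of all probes were called lower. All 3 probes were listed above 0 on every array, and no filter removed any of them. The lowest deposited value of AT1G79220, 0.0292 on WT 3, was however near 0.0261, the 5th percentile of all positive values.

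AT1G79220 had quantile-normalised intensities between 0.0457 and 0.187 in WT, with a median of 0.128, and between 0.305 and 0.624 in toc120, with a median of 0.396. The dimmest toc120 array thus stood above the brightest WT array, and the genotypes did not overlap. Of all probes, 14.7% were higher in toc120 without overlap on this scale. WT 3 and WT 6 were the dimmest arrays, and toc120 5 and toc120 6 the brightest. The mean was 0.12 ± 0.0529 in WT and 0.43 ± 0.118 in toc120 (SD, n = 6 arrays each).

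On the log2 scale used for testing, with a constant of 0.0261 added to each intensity, AT1G79220 differed by 1.70 (SE 0.27), a 3.25-fold rise (limma adjusted p = 0.000332). Across the 3439 probes, 21.4% were called higher and 24.8% lower in toc120 at an adjusted p under 0.05. The change of AT1G79220 exceeded that of 96.7% of the probes. An exact two-sided permutation test over the 924 ways of splitting the 12 arrays gave p = 0.00216, the smallest it can give, and a 95% interval for the log2 change of 1.08 to 2.34. Here and below, this test, its interval and the limma fits over the 12 arrays without a block treat the arrays as independent. Arrays of neighbouring number, however, resemble each other. With the larger constant of 0.24 the log2 change of AT1G79220 was 0.89, because the WT intensities are small beside it.

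Arrays of neighbouring number within a genotype (1 and 2, 3 and 4, 5 and 6) resemble each other, with a fitted correlation of 0.506 across all probes, so a second fit used their means, 3 per genotype. There, too, AT1G79220 was called (SE 0.22, limma adjusted p = 0.00617), where 14.6% of all probes were called higher and 16.9% lower. In the fit with neighbouring numbers as a random block, which called 1288 of 3439 probes, AT1G79220 had an SE of 0.43 (limma adjusted p = 0.00811). Its rise was 1.31 in numbers 1 and 2, 1.76 in numbers 3 and 4 and 2.04 in numbers 5 and 6 on the log2 scale, and all 6 toc120 arrays exceeded the WT array of their own number. Within WT, however, neighbours differed by 1.35 between arrays 3 and 4 and by 1.13 between arrays 5 and 6, against 0 between arrays 1 and 2. Averaging therefore hides a WT spread of 0.59 (SD of log2 intensity) that was 0.36 in toc120.

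The deposited intensities gave the same direction for AT1G79220. They ran from 0.0292 to 0.152 in WT and from 0.322 to 0.653 in toc120, and the log2 change was 2.19 (SE 0.27, limma adjusted p = 5.01e-05). Over all probes the median log2 change in the deposited intensities was 0.23 towards toc120, so relative to that shift AT1G79220 was at 1.96. With equal array medians its log2 change was 1.65 (SE 0.28, limma adjusted p = 0.000544).

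**Figure D1:**
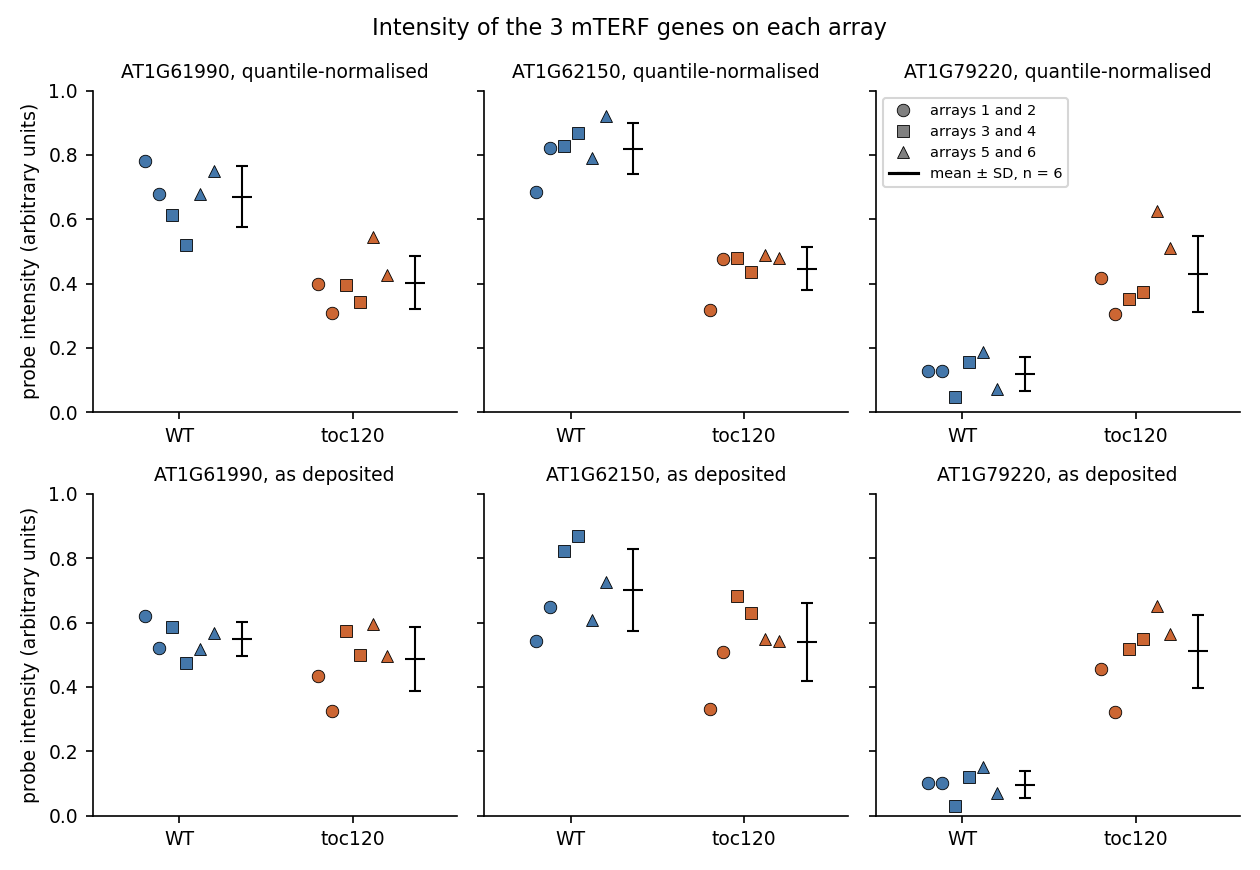
Probe intensity (arbitrary units, linear axis from 0) of the 3 genes on the 6 WT and 6 toc120 arrays, quantile-normalised in the upper row and as deposited in the lower row. Symbols mark neighbouring array numbers and bars give mean ± SD (n = 6). The toc120 arrays of AT1G79220 lie above all WT arrays in both rows, whereas those of AT1G62150 lie below all WT arrays in the upper row only and those of AT1G61990 overlap WT in both. Of all probes, 14.7% were higher and 16.3% lower in toc120 without overlap when quantile-normalised, and 22.7% and 6.51% as deposited.

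AT1G62150 was lower in toc120. Its quantile-normalised intensity lay between 0.684 and 0.921 in WT, with a median of 0.824, and between 0.317 and 0.489 in toc120, with a median of 0.478. The genotypes did not overlap, as for 16.3% of all probes that were lower in toc120. The means were 0.819 ± 0.08 in WT and 0.446 ± 0.0662 in toc120 (SD, n = 6). The log2 change was -0.85 (SE 0.11), a 1.8-fold fall, and the limma adjusted p was 5.42e-05 over the 12 arrays and 0.00524 in the averaged fit. The exact permutation test gave p = 0.00216, the smallest it can give, and a 95% interval of -1.10 to -0.63.

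The fall of AT1G62150 was similar in the 3 pairs of numbers, at -0.90, -0.86 and -0.78 on the log2 scale. One array stood apart, toc120 1 at 0.317, below the 0.434 to 0.489 of the other toc120 arrays. Without it the log2 change was -0.76 (limma adjusted p = 1e-05).

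As deposited, AT1G62150 ran from 0.541 to 0.87 in WT and from 0.33 to 0.684 in toc120, so that the genotypes overlapped (6.51% of all probes were lower in toc120 without overlap as deposited, and 22.7% higher). The log2 change was -0.38 (SE 0.17), which did not pass (limma adjusted p = 0.0954), although each toc120 array was below the WT array of its own number. Relative to the shift of all probes it was at -0.61. With each array scaled to an equal median of its positive values (equal array medians) the log2 change was -0.99 (SE 0.12, limma adjusted p = 3.91e-05).

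AT1G61990 was also lower in toc120, with the smallest fitted change of the 3 genes. Its quantile-normalised intensity lay between 0.519 and 0.782 in WT, with a median of 0.678, and between 0.307 and 0.545 in toc120, with a median of 0.397. The genotypes overlapped through a single pair of arrays, since toc120 5 was brighter than WT 4. The means were 0.67 ± 0.0949 and 0.403 ± 0.082 (SD, n = 6).

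The log2 change of AT1G61990 was -0.71 (SE 0.13), a 1.64-fold fall, and the limma adjusted p was 0.00103 over the 12 arrays and 0.0318 in the averaged fit. The exact permutation test gave p = 0.00433 and a 95% interval of -1.01 to -0.39. The log2 change was -1 in numbers 1 and 2, -0.59 in numbers 3 and 4 and -0.54 in numbers 5 and 6, and all 6 toc120 arrays were below the WT array of their own number.

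In the deposited intensities most of this fall was absent. AT1G61990 ran from 0.476 to 0.621 in WT and from 0.325 to 0.595 in toc120. The log2 change was -0.18 (SE 0.13, limma adjusted p = 0.3), or -0.42 relative to the shift of all probes. By number pair it was -0.57, 0.02 and 0, and 4 of the 6 toc120 arrays were below the WT array of their own number. With equal array medians the log2 change was -0.79 (SE 0.12, limma adjusted p = 0.000179), and on that scale the genotypes did not overlap, as for 19.6% of all probes that were lower in toc120 (12.2% were higher without overlap).

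Whether the genes changed by different amounts was asked by taking the log2 difference between a pair of genes on the same array. This difference was compared between genotypes, in quantile-normalised intensities unless stated otherwise. A factor common to an array then largely cancels. The height of such a difference has no meaning, because it sets unlike probes against each other, and only its shift from WT to toc120 is read. The 3 possible pairs were tested, with Benjamini-Hochberg adjustment over them. AT1G62010, also in the cluster, was not part of these tests. The tests use the same arrays as the changes above, and genes picked with earlier results known, so they add no independent support.

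AT1G79220 separated from both AT1G61990 and AT1G62150. Its difference to AT1G61990 ran from -3.16 to -1.57 in WT and from -0.16 to 0.24 in toc120, without overlap. The shift was 2.41 (95% interval 1.80 to 3.03, exact permutation p = 0.00216, adjusted 0.00325). Against AT1G62150 the shift was 2.55 (95% interval 1.85 to 3.27, exact permutation p = 0.00216, adjusted 0.00325). Taken from the deposited intensities, the shifts were 2.38 and 2.57. With neighbours averaged they kept their size, but 3 means per genotype cannot give an exact p below 0.1.

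AT1G61990 and AT1G62150 were not shown to differ in their changes. The difference of AT1G62150 to AT1G61990 averaged 0.29 ± 0.29 in WT and 0.15 ± 0.33 in toc120 (SD, n = 6), a shift of -0.14 that did not pass (exact permutation p = 0.435, adjusted 0.435). Its 95% interval ran from -0.54 to 0.26, so unequal changes of up to those sizes cannot be told from equal ones.

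**Figure D2:**
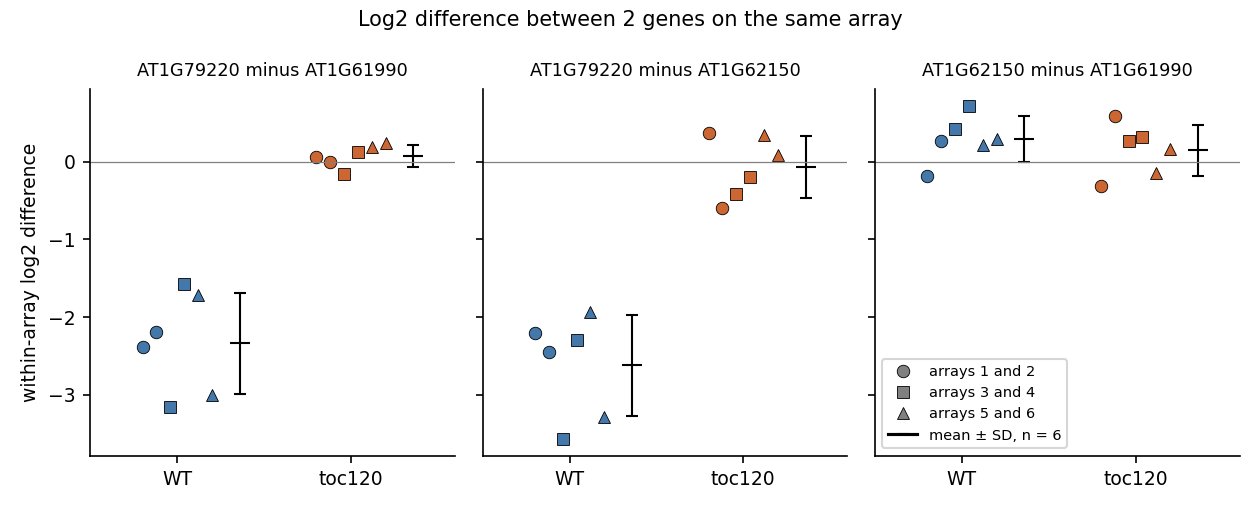
Log2 difference in quantile-normalised intensity between a pair of genes on the same array, for WT and toc120, with symbols for neighbouring array numbers and bars for mean ± SD (n = 6). The differences of AT1G79220 to AT1G61990 and to AT1G62150 shift upwards in toc120 by 2.41 and 2.55 without overlap, and that of AT1G62150 to AT1G61990 shifts by -0.14 within the spread.

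The family as a whole was measured in part. Of 35 mTERF loci listed from general knowledge, 8 had a 1-gene probe, 11 more were found only on probes that several genes share, and the rest were on no probe with an assigned gene. Of the 8, 3 were called higher in toc120 and 2 lower over the 12 arrays, as with neighbours averaged, and 3 did not pass. The median log2 change of the 8 was 0.27, against 0 for all probes. Since 46.1% of all probes were called over the 12 arrays and 31.5% with neighbours averaged, and the list contains the 3 genes picked for this account, nothing particular to the family is read from 5 of 8. As deposited, 5 were higher and 0 lower (of all probes 45.5% were called, 33.8% higher and 11.6% lower), and with equal array medians 2 were higher and 2 lower (of all probes 47.3% were called, 18.5% higher and 28.8% lower).

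Among the 5 other genes, AT3G46950 and AT4G09620 were higher in toc120. AT3G46950 ranged from 0.153 to 0.305 in WT (median 0.245) and from 0.405 to 0.57 in toc120 (median 0.449), without overlap, as for 14.7% of all probes that were higher in toc120. Its log2 change was 0.91 (SE 0.15, limma adjusted p = 0.000465, and 0.0336 averaged), 1.46 as deposited and 0.88 with equal array medians. All of these passed, but the averaged fit that also blocks on number pair did not call it (limma adjusted p = 0.0794).

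The probe of AT4G09620 read 4.16 to 6.93 in WT (median 4.82) and 8.23 to 12.2 in toc120 (median 11.6). Its log2 change was 1.02 (SE 0.16, limma adjusted p = 0.000254, and 0.0307 averaged) and 0.81 as deposited, where it also passed (limma adjusted p = 0.000226). It was lost with equal array medians, at 0.18 (limma adjusted p = 0.407).

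AT5G55580 is mTERF9, a chloroplast protein known to promote assembly of the organelle's ribosomes. It ran from 0.29 to 0.524 in WT (median 0.433) and from 0.318 to 0.929 in toc120 (median 0.687). The toc120 arrays 1 and 2 lay within the WT range, and the other toc120 arrays above it. The log2 change was 0.47 (SE 0.25), which did not pass over the 12 arrays (limma adjusted p = 0.162) or with neighbours averaged (0.41). It was 0.98 as deposited, or 0.75 relative to the shift of all probes, and passed there (limma adjusted p = 0.0182). With neighbours averaged as well, the deposited change did not pass (0.169). The change was also called with the sample number as a block (limma adjusted p = 0.0477), but not in the averaged fit blocked by number pair (0.191). It was called without toc120 2 (0.034) and, at 0.64, without numbers 1 and 2 (0.00515). It was not called without any other single array, without numbers 3 and 4 (0.323) or, at 0.26, without numbers 5 and 6 (0.591).

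AT1G62010 stands near AT1G61990 in the chromosome 1 cluster. It ran from 0.359 to 0.464 in WT (median 0.396) and from 0.28 to 0.484 in toc120 (median 0.42), and its log2 change of -0.06 did not pass (SE 0.12, limma adjusted p = 0.75, exact permutation interval -0.35 to 0.22). Whether that change differs from the one of AT1G61990 was not tested. As deposited it was called higher, at 0.54 (limma adjusted p = 0.0253). AT3G18870 had medians of 0.0792 in WT and 0.0833 in toc120, and its log2 change of 0.08 did not pass (SE 0.19, limma adjusted p = 0.801).

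**Figure D3:**
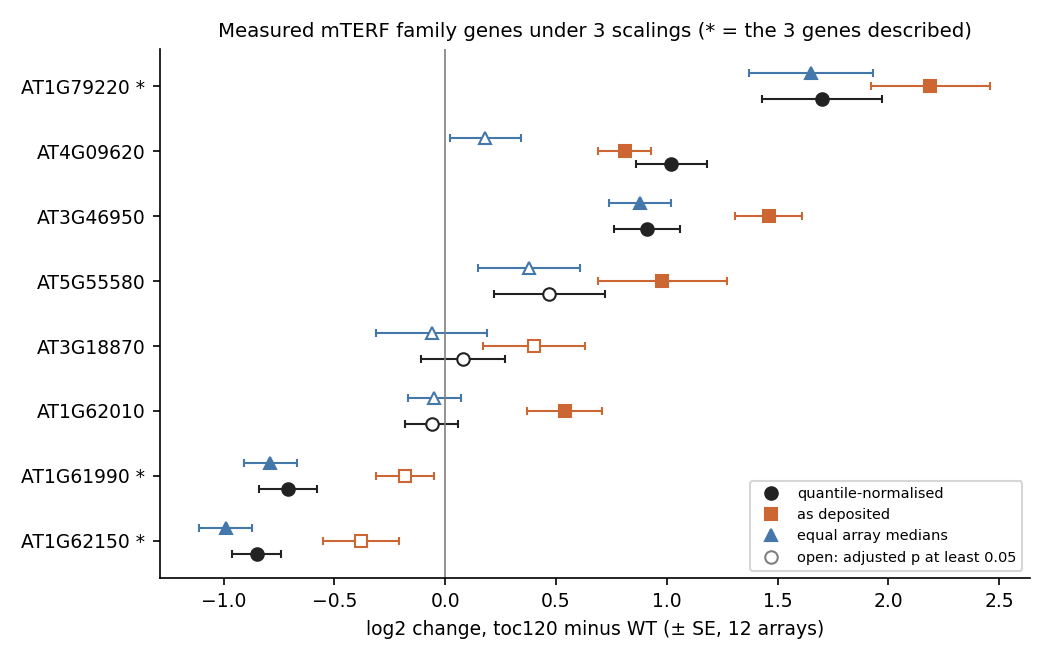
Log2 change, toc120 minus WT, with its SE from the fit over the 12 arrays, for the 8 mTERF genes with a 1-gene probe, under 3 scalings. Filled symbols passed at an adjusted p under 0.05, as did 46.1% of all probes when quantile-normalised, 45.5% as deposited and 47.3% with equal array medians. AT1G79220 and AT3G46950 are higher under all 3 scalings, whereas AT1G61990 and AT1G62150 are below 0 under all 3 but open as deposited (-0.18 and -0.38).

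Another 6 probes carry several genes each, all of them on the mTERF list, and their signal cannot be assigned to any one. Of these, 1 was called higher, 1 lower and 4 not over the 12 arrays, where 21.4% of all probes were called higher and 24.8% lower. As deposited, 3 were called higher, 0 lower and 3 not, where 33.8% of all probes were called higher and 11.6% lower. The lower one has AT1G61990 among its 4 genes. It ran from 0.361 to 0.507 in WT and from 0.176 to 0.336 in toc120, a fitted log2 difference of -0.75 (limma adjusted p = 0.00102, and 0.0368 averaged). Like the 1-gene probe of AT1G61990 it did not pass as deposited (-0.19, limma adjusted p = 0.324). The higher one, of 2 genes, showed 0.69 by the same measure (limma adjusted p = 0.0277), which did not pass with neighbours averaged (0.184). Another was listed at 0 on all 12 arrays.

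The remaining machinery of organelle transcription was out of reach. None of the 11 listed loci of nucleus-encoded organelle RNA polymerases, sigma factors and their binding proteins, and none of 25 loci of proteins bound to the plastid RNA polymerase or nucleoid, had a named probe (0 of each). The genes encoded in the plastid or the mitochondrion, on whose DNA or RNA mTERF proteins act, likewise had 0 named probes. Of 14 green tissue markers, 1 was measured, and of 10 root markers 0. The green marker, LHB1B2 of the light-harvesting antenna, had intensities of 22.7 to 28.6 in WT and 18.1 to 23.3 in toc120 (log2 change -0.25, limma adjusted p = 0.0228, and 0.0634 averaged). The size of its fall depended on the scaling, with a log2 change of -0.48 as deposited (limma adjusted p = 0.0285) and -1.12 with equal array medians (3.32e-05), where the genotypes did not overlap. On that last scale, 19.6% of all probes were lower in toc120 without overlap. The part of LHB1B2 in the changes of the mTERF genes was not tested. In whole RNA samples, fewer cells of a type and less RNA per cell cannot be told apart.

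For each gene, the 3 named genes of closest profile were found among the 492 other 1-gene probes above 0 on every array. Likeness was the root mean square difference between log2 intensities over the 12 arrays, each gene set to its own mean. The arrays share genotype and number, so a similar change between genotypes by itself brings profiles close, and nothing is read from it about shared function or control. AT1G61990 was closest to AT2G28540 (0.18), AT4G39690 (0.19) and AT5G17280 (0.19), where the median over all candidates was 0.57. The log2 changes of these genes were -0.61, -0.74 and -0.59, but -0.08, -0.71 and -0.02 as deposited. AT1G62150 was closest to AT1G25500 (0.16), AT5G11010 (0.17) and AT4G27510 (0.21), against a median of 0.60. These changed by -0.94, -0.87 and -0.73 on the log2 scale, but by -0.36, -0.73 and -0.16 as deposited.

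AT1G79220 had looser matches, at 0.41 for LAS, 0.41 for AT1G53260 and 0.42 for AT4G05030, against a median of 1.02. LAS encodes LATERAL SUPPRESSOR, a GRAS family regulator needed for side shoot formation. These 3 genes had log2 changes of 1.69, 1.71 and 1.62, and of 2.13, 2.06 and 2.12 as deposited. On WT 3 and WT 6 the profile of AT1G79220 lay below all 3 of theirs.

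**Figure D4:**
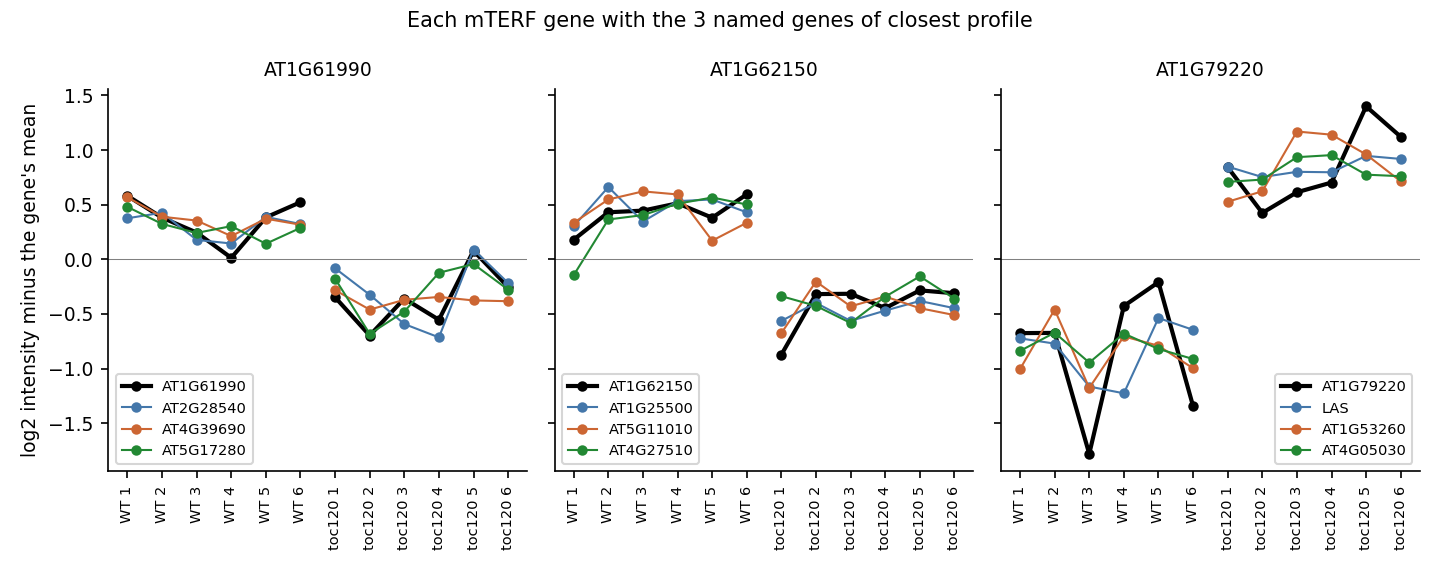
Log2 quantile-normalised intensity minus the gene's own mean, by array, for each of the 3 mTERF genes (black) and the 3 named genes with the smallest root mean square difference to it (colours). The profiles near AT1G61990 and AT1G62150 step down from WT to toc120 and those near AT1G79220 step up, with WT 3 and WT 6 of AT1G79220 below its companions.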

How the data were processed

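Per the labels, total RNA of 6 WT and 6 toc120 samples was profiled. The authors deposited linear probe intensities from 0 to 100; how background was corrected and values scaled is not given in the labels. No background or spot values were used, and the labels do not say how many different plants the arrays hold. Deposited array totals were 2641 to 3686 and medians, zeros included, 0.151 to 0.278, lower in WT (up to 0.157) than in toc120 (from 0.188). The scaling to equal array medians used the positive values of each array only.

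Arrays were quantile-normalised and tested as log2(value + 0.0261), the 5th percentile of positive values, with limma 3.58.1 in R 4.3.3 (lmFit, eBayes, two-sided) and Benjamini-Hochberg adjustment over 3439 probes at 0.05. Fold changes are on that scale. Exact permutation tests and their intervals were computed in Python 3.11.15 with numpy 2.4.6. Scripts were tested on simulated data. Of the 692 1-gene probes, 690 matched a locus in TAIR10.1. No coordinates are given because the probes' build is unknown.

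Equal sample numbers were checked for pairing: deviations from the genotype mean correlated with r of 0.22 to 0.35 across probes for all 6 numbers, and all 12 arrays matched their own number best. The pairing comes from the data, not the labels.

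The 3 genes and the gene lists were chosen with earlier results of these data known. Named genes are the 3, every measured gene of the lists, and the 3 closest profiles to each. Alternatives were the scaling, the constant, a filter on dim probes, the number as a block, averaged neighbours, neighbours as a random block, and arrays left out.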

Additional observations from a re-analysis of the deposited data

Results flagged for a closer look

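Among the 8 mTERF genes with a 1-gene probe, 1 array stood apart from the others of its genotype. For AT1G62150, array toc120 1 read 0.317 after quantile normalisation, below the remaining toc120 arrays at 0.434 to 0.489. The gap to its nearest neighbour took up 0.681 of the group's spread, more than Dixon's 95% limit allows. It was 1 of 16 groups of 6 arrays tested, and chance marks about 1 in 20.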

How the results depend on the processing

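AT1G79220 kept its direction and call under all 25 alternatives, at 0.89 to 2.19 on the log2 scale (limma adjusted p from 5.01e-05 to 0.0229) and 1.51 to 1.85 with any 1 array left out. AT1G61990 and AT1G62150 each kept theirs under 23 of 25, at -0.81 to -0.64 and -0.89 to -0.76 with any 1 array left out. As deposited, AT1G61990 was at -0.18 and AT1G62150 at -0.38 and neither was called, nor with neighbours averaged as well (limma adjusted p = 0.483 and 0.284). The cause was not tested. With the sample number as a block the 3 were called (limma adjusted p = 0.00261, 0.000136 and 0.00161 in order of locus), and also in the averaged fit blocked by number pair (0.0499, 0.0164 and 0.0229). Among the 8 mTERF genes with a 1-gene probe, the sample number block changed the call of AT5G55580 alone (0.0477, but 0.191 averaged and blocked), and blocking the averaged fit that of AT3G46950 alone.

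The number of probes called was 1506 to 1589 with any 1 array left out, against 1587. It was 1688 with the sample number as a block, 979 in the averaged fit blocked by number pair, and 899 with neighbours averaged as deposited. The shifts of AT1G79220 against AT1G61990 and AT1G62150 were 2.22 to 2.56 and 2.34 to 2.71 with any 1 array left out, and 1.40 and 1.52 with the larger constant. With neighbours averaged they were 2.41 and 2.55, 2.38 and 2.57 as deposited, and 2.44 and 2.64 with equal medians, each at the smallest exact p of 0.1 that 3 means against 3 allow. A paired sign-flip test over equal numbers gave an exact p of 0.0312 for both, the smallest that 6 numbers allow. It treats the numbers as independent, although neighbouring numbers resemble each other. The shift of AT1G62150 against AT1G61990 was -0.23 to -0.05 with any 1 array left out.

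Changes of sign occurred for 2 genes that were not called after quantile normalisation. AT1G62010 was at 0.54 as deposited, a call (limma adjusted p = 0.0253) that averaging neighbours removed (0.195), at 0.09 without numbers 1 and 2, and from -0.12 to 0.03 with any 1 array left out. AT3G18870 was at -0.06 with equal medians, with or without neighbours averaged, and from -0.03 to 0.18 with any 1 array left out.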
